A study of Arabidopsis thaliana with 6 samples.

Results

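The plastid-encoded genes of Arabidopsis thaliana were followed in the inflorescence stem after treatment with N-1-naphthylphthalamic acid (NPA), which blocks the directed cell-to-cell flow of auxin. Members were chosen by position: every gene of the array's gene table that lies on the plastid chromosome of the RefSeq annotation and has a probe set, a group of short probes for 1 transcript, of its own. Of 13355 genes with a probe set of their own, 69 were members. All 69 code for proteins and each had exactly 1 such probe set. Another 7 gene symbols, rps12, rpl2, rpl23, ycf2, ndhB, rps7 and ycf1, had only probe sets named for 2 gene entries each and were not analysed here.

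The arrays held RNA from wild-type plants of strain Col, in 2 groups of 3 arrays that share genotype and growth. Plants spent 3 weeks in short days (8 h light, 16 h dark) before a change to long days (16 h light, 8 h dark). Stem segments 3 mm long, lying 2.5 cm above the base, were frozen after 7 days with NPA at 10 mg per g or after mock treatment. Nothing in the labels ties the 3 arrays of a group to separate plants or cultures. The p-values below therefore describe the spread between these RNA samples, which may be technical.

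The plastid genome keeps genes for core subunits of the photosynthetic complexes and for part of its own gene expression machinery, while most other plastid proteins are encoded in the nucleus and imported. Symbols carry the complex in their first 3 letters: psa for photosystem I, psb for photosystem II, pet for the cytochrome b6f complex, atp for ATP synthase, ndh for the NADH dehydrogenase-like complex, rpo for RNA polymerase, and rpl and rps for the large and small ribosomal subunits. Many plastid genes are transcribed together in long units that are later cut into shorter RNAs. Photosynthesis genes are read mainly by the plastid's own polymerase, whose core the rpo genes encode. A few genes, among them rpoB, rpoC1 and rpoC2, are read by a polymerase from the nucleus. In the stem, chloroplasts lie mostly in the green cortex below the epidermis. Standard labelling for these arrays starts from poly(A) tails, which plastid RNAs carry mainly as a step of decay, so the values need not follow the whole amount of a plastid RNA, which was not tested.

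No plastid-encoded gene passed the test, but 59 of 69 had a lower mean in NPA than in mock. The test was limma's moderated test over 22746 probe sets with Benjamini-Hochberg adjustment, called at an adjusted p under 0.05. It called 0 of 69 members, where 3.00% of all probe sets were called, and the lowest adjusted p of a member was 0.128, for psbJ. All values are log2 expression values, so a difference of -1 stands for a halving, and differences are NPA minus mock throughout. Member differences ran from -0.82 for rps18 to 0.39 for petL with a median of -0.22, against a median of 0.02 over all tested probe sets, of which 46.1% had a lower mean in NPA. The array medians over all probe sets were 6.25 in mock and 6.36 in NPA on average, and with arrays centred on them the median of the 69 genes was -0.33.

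Without adjustment, 12 of 69 members, or 17.4%, had p under 0.05 with a lower mean in NPA, where 4.95% of all probe sets did. In the opposite direction there were 0 members, where 11.4% of all probe sets lay. The 3 NPA arrays were all below the 3 mock arrays in 16 members, or 23.2%, where 7.45% of all probe sets showed this. They were all above mock in 0 members, where the share of all probe sets was 14.8%. These members share RNA of the same organelle and often the same primary transcript, so they are not independent of each other. Lower values in bulk tissue cannot tell fewer green cells from less plastid RNA per cell.

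**Figure D1:**
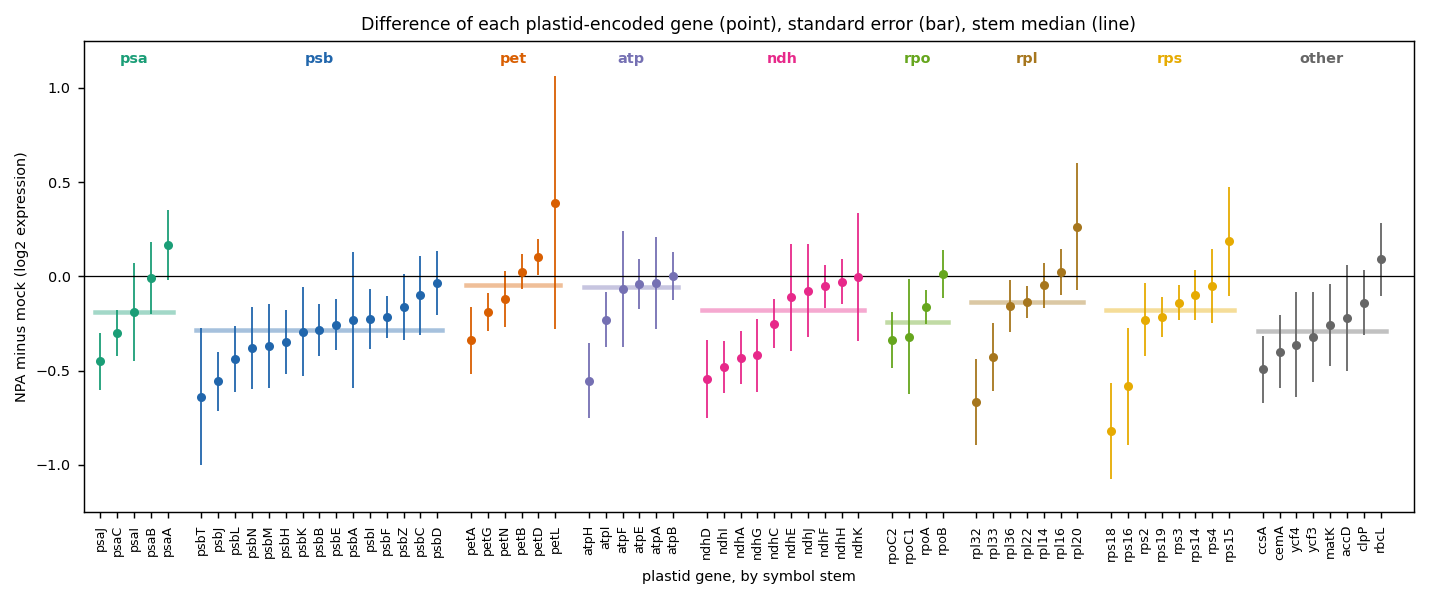
Points give the difference NPA minus mock in log2 expression for each of 69 plastid-encoded genes, bars its standard error and lines the median of each symbol stem. All 15 psb and all 10 ndh points lie below 0, and petL has the widest bar, with a standard error of 0.67.

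The first mock array stood above the other arrays in most of these genes. Mock 1 held the highest of the 6 values in 49 of 69 members, or 71.0%, where this was so for 19.96% of all probe sets. Over the members mock 1 exceeded the mean of mock 2 and mock 3 by a median of 0.42, against 0.02 over all probe sets. Without mock 1 the median difference of the 69 genes was -0.08 in place of -0.22, and 47 of them had a lower mean in NPA. Of the 59 genes with a lower mean over all arrays, 44 then had a difference over 1.5 times smaller or turned in sign. Among the 16 whose groups did not overlap these were 8, namely atpH, psbF, psaJ, psbB, ccsA, ndhD, psaC and ndhG. Then 6 members had an unadjusted p under 0.05 with a lower mean, where 3.56% of all probe sets did: psbJ, psaJ, rps18, ccsA, ndhI and ndhA. The psaA gene had such a p with a higher mean. The array NPA 2 also stood apart, with the highest of 6 values in 14 members and the lowest in 14 others. NPA 3 was the lowest array in 34 members, and without it 46 members had a lower mean in NPA, with a median difference of -0.15. Without both mock 1 and NPA 2, 58 members had a lower mean in NPA, with a median difference of -0.15.

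**Figure D2:**
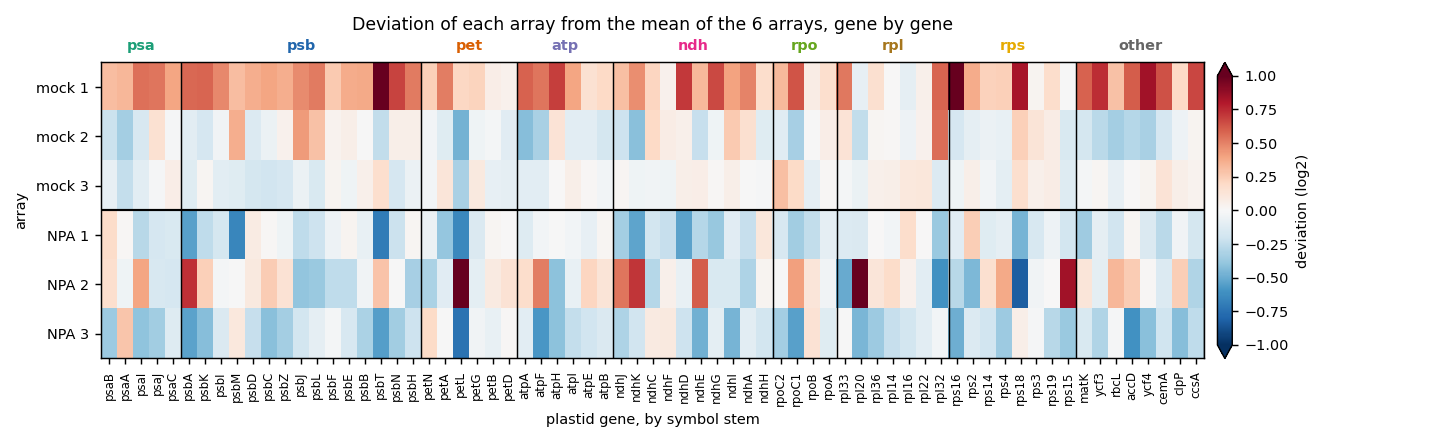
Colours give the deviation of each array from the mean of the 6 arrays in log2 units, for 69 plastid-encoded genes in columns ordered by symbol stem and 6 arrays in rows, with colour capped at 1 in either direction. The row of mock 1 is above the mean nearly throughout, and NPA 2 shows single genes, such as petL, rpl20 and rps15, far above it.

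All 15 measured genes of photosystem II, the complex that splits water, had a lower mean in NPA, from -0.64 for psbT to -0.03 for psbD, with a median of -0.29. Without mock 1 the median was -0.14, and psbC and psbD had higher means in NPA, by 0.07 and 0.14. Groups did not overlap for psbJ, psbF and psbB, where 7.45% of all probe sets lay lower in NPA without overlap. The gene psbJ encodes a small subunit next to cytochrome b559. It measured 11.94, 11.89 and 11.40 in mock 1, 2 and 3 and 11.21, 11.07 and 11.28 in NPA 1, 2 and 3, so all NPA arrays lay below all mock arrays. Its difference was -0.56 with a standard error of 0.16 and a 95% interval of -0.92 to -0.19 (limma, adjusted p = 0.128). With mock 3 left out it was the only member called, at -0.73 (limma, adjusted p = 0.0433), where 1.42% of all probe sets were called. With any 1 array left out its difference stayed between -0.73 and -0.46.

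The psbA gene encodes the D1 protein, a reaction centre subunit that is replaced often because light damages it. It measured 10.86, 10.19 and 10.17 in mock and 9.75, 11.02 and 9.76 in NPA. The highest NPA array was the highest of all and the other NPA arrays were the lowest, so its difference of -0.23 had a wide 95% interval, from -1.07 to 0.61 (adjusted p = 0.814). It was -0.65 without NPA 2 and -0.0045 without mock 1. The other reaction centre subunit D2, encoded by psbD, had the difference nearest to 0 of the stem. It measured 8.31, 7.81 and 7.77 in mock and 8.03, 8.04 and 7.72 in NPA, with overlapping groups and an adjusted p of 0.951. Its co-transcribed partner psbC, for the antenna protein CP43, differed by -0.10, while psbB, for the antenna protein CP47, differed by -0.29. For psbT, a small subunit, values were 6.26, 4.98 and 5.40 in mock and 4.53, 5.52 and 4.68 in NPA. Mock 1 alone was above all NPA arrays there, and the difference went from -0.64 to -0.28 without it. The remaining small subunits psbE, psbF, psbH, psbI, psbK, psbL, psbM and psbZ differed by -0.44 to -0.16, and psbN, a gene for assembly of the complex, by -0.38.

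Of 5 measured photosystem I genes, 4 had a lower mean in NPA, with a median of -0.19 that was 0.04 without mock 1. The large core subunits psaA and psaB, which carry the reaction centre, differed by 0.17 and -0.01. The psaA values were 6.39, 5.72 and 5.82 in mock and 6.08, 6.02 and 6.34 in NPA (adjusted p = 0.730), with the highest value in mock 1 and both lowest in the other mock arrays. The small subunit psaJ measured 9.99, 9.61 and 9.44 in mock and 9.29, 9.30 and 9.11 in NPA. These groups did not overlap, and the difference was -0.45 ± 0.15 (SE, n = 3 per group, adjusted p = 0.198). Groups did not overlap for psaC either, the subunit with the iron-sulphur clusters, which differed by -0.30, and psaI differed by -0.19.

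The 6 genes of the cytochrome b6f complex, which passes electrons between the photosystems, were split, with 3 lower and 3 higher means in NPA and a median of -0.05. The core genes petB and petD, for cytochrome b6 and subunit IV, differed by 0.03 and 0.10. The gene of cytochrome f, petA, measured 10.41, 9.78 and 10.02 in mock and 9.51, 9.79 and 9.89 in NPA, with NPA 1 the lowest and mock 1 the highest and a difference of -0.34 (limma, adjusted p = 0.406) that was -0.17 without mock 1. The small subunit petL measured 5.25, 4.56 and 4.71 in mock and 4.39, 7.01 and 4.30 in NPA. NPA 2 was far above the other 5 arrays and the other NPA arrays were the lowest, so the mean difference of 0.39 (adjusted p = 0.834) was -0.49 without NPA 2. The small subunits petG and petN differed by -0.19 and -0.12.

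The 6 ATP synthase genes had a median difference of -0.05, and without mock 1 it was 0.06. The catalytic beta subunit atpB measured 12.94, 12.57 and 12.72 in mock and 12.76, 12.88 and 12.60 in NPA, with overlapping groups, a difference of 0.00 (-0.10 with arrays centred on their medians) and a 95% interval of -0.29 to 0.30 (adjusted p = 0.992). The alpha subunit atpA and the epsilon subunit atpE both differed by -0.04, and atpF, a stalk subunit, by -0.07. The ring subunit atpH measured 8.55, 8.00 and 7.87 in mock and 7.86, 7.46 and 7.45 in NPA. Its groups did not overlap but mock 3 and NPA 1 were almost level, and its difference was -0.55 ± 0.20 (SE, n = 3 per group, adjusted p = 0.230), or -0.35 without mock 1. The channel subunit atpI differed by -0.23, from a mean below the lower quartile of all probe sets.

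All 10 measured genes of the NADH dehydrogenase-like complex, which feeds electrons back into the chain around photosystem I, had a lower mean in NPA. Their median was -0.18, which was -0.12 without mock 1 and -0.37 without NPA 2. Without mock 1 the means of ndhE, ndhH, ndhJ and ndhK were higher in NPA, by 0.02, 0.05, 0.06 and 0.23. Groups did not overlap for ndhA, ndhD, ndhG and ndhI, which are transcribed together. Of all probe sets 7.45% lay lower in NPA without overlap. The ndhI values were 12.56, 12.42 and 12.21 in mock and 12.05, 12.01 and 11.69 in NPA, with no overlap and a difference of -0.48 ± 0.14 (SE, n = 3 per group, adjusted p = 0.133). For ndhD they were 9.46, 8.80 and 8.81 in mock and 8.22, 8.68 and 8.54 in NPA, and the difference of -0.54 had a 95% interval of -1.03 to -0.06 (adjusted p = 0.252). Without mock 1 it was -0.32. In ndhK, of a separate unit, values were 7.97, 7.09 and 7.46 in mock and 6.98, 8.22 and 7.31 in NPA. There NPA 2 was the highest array and NPA 1 the lowest, so the means differed by 0.00 and the standard error was 0.34 (adjusted p = 0.998). Of the other subunit genes, ndhA and ndhG differed by -0.43 and -0.42, ndhC by -0.25, ndhE by -0.11 and ndhJ by -0.08. The ndhF and ndhH genes lay below the lower quartile of probe set means and differed by -0.05 and -0.03.

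The large subunit of rubisco, the enzyme that fixes carbon dioxide, is encoded by rbcL. It measured 10.29, 9.66 and 9.92 in mock and 9.81, 10.33 and 9.99 in NPA, with overlapping groups, a difference of 0.09 and a 95% interval of -0.36 to 0.54 (adjusted p = 0.873). Of the 8 members outside the named stems, it alone had a higher mean in NPA, and with arrays centred on their medians its difference was -0.02. Lowest among them was ccsA, needed for attaching haem to c-type cytochromes, at 11.69, 11.05 and 11.05 in mock and 10.84, 10.71 and 10.76 in NPA. Its groups did not overlap and its difference was -0.49 ± 0.18 (SE, n = 3 per group, adjusted p = 0.228), or -0.28 without mock 1. The photosystem I assembly genes ycf3 and ycf4 differed by -0.32 and -0.36, the envelope protein gene cemA by -0.40, the splicing factor gene matK by -0.26 and the protease gene clpP by -0.14. The accD gene, for a subunit of the enzyme that starts fatty acid synthesis, measured 8.73, 7.84 and 8.13 in mock and 8.14, 8.38 and 7.52 in NPA (difference -0.22, adjusted p = 0.765). For these 8 members together the median moved from -0.29 to -0.03 without mock 1.

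The 4 genes of the plastid RNA polymerase had a median difference of -0.24, which was -0.10 without mock 1 and -0.14 without NPA 3. The beta subunit rpoB lay at 4.06, 3.99 and 3.90 in mock and 3.74, 4.11 and 4.14 in NPA, below the lower quartile of all probe sets, with overlapping groups and a difference of 0.01 (adjusted p = 0.974). With arrays centred on their medians it was -0.10. In the same unit, rpoC2 measured 6.98, 6.54 and 6.95 in mock and 6.49, 6.65 and 6.31 in NPA, a difference of -0.34 ± 0.15 (SE, n = 3 per group, adjusted p = 0.323). The third gene of the unit, rpoC1, differed by -0.32. The alpha subunit gene rpoA, which lies in a ribosomal protein unit, differed by -0.16 with groups that did not overlap. Grouped by polymerase, the 4 measured genes known to be read by the nuclear enzyme, accD, rpoB, rpoC1 and rpoC2, had a median of -0.27, and the 27 photosynthesis genes read mainly by the plastid enzyme -0.23. Without mock 1 these medians were -0.03 and -0.08.

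Ribosomal protein genes had the widest range of all stems. Of 7 rpl genes 5, and of 8 rps genes 7, had a lower mean in NPA, with medians of -0.14 and -0.18. The lowest difference of all members was that of rps18, of the small subunit, at 10.35, 9.76 and 9.69 in mock and 9.06, 8.69 and 9.58 in NPA. Its groups did not overlap, and its difference of -0.82, a 1.77-fold lower level, had a standard error of 0.26 and a 95% interval of -1.42 to -0.22 (adjusted p = 0.167). For rpl32, of the large subunit, values were 11.77, 11.74 and 11.05 in mock and 10.82, 10.58 and 11.16 in NPA (difference -0.67, adjusted p = 0.204), where NPA 3 exceeded mock 3. The rps16 difference of -0.58 was the next lowest of the small subunit, and mock 1 exceeded the mean of the other mock arrays by 1.18 in this gene, the most of all members. Its difference was -0.19 without mock 1. The rps2, rps4 and rps14 genes differed by -0.23, -0.05 and -0.10. Higher means were seen in rpl20, rps15 and rpl16. The rpl20 values were 5.56, 5.40 and 5.58 in mock and 5.50, 6.65 and 5.19 in NPA, and those of rps15 were 5.59, 5.45 and 5.47 in mock and 5.41, 6.44 and 5.23 in NPA. In both genes NPA 2 was far above the other arrays, and their differences of 0.26 and 0.19 (adjusted p = 0.765 and 0.812) were -0.17 and -0.18 without it.

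Genes of the same transcription unit could be set side by side, as they share a primary RNA. In the psbE unit, psbE, psbF, psbL and psbJ had differences of -0.26, -0.22, -0.44 and -0.56. Next along the genome came petL and petG, at 0.39 and -0.19. In the psaJ unit that follows them, psaJ, rpl33 and rps18 had -0.45, -0.43 and -0.82. The unit from ndhD and psaC to rps15 had 8 measured genes with a median of -0.36, which was -0.19 without mock 1. Its psaC, ndhD, ndhG, ndhI and ndhA lay lower in NPA without overlap between groups, where 7.45% of all probe sets did. The unit of atpB and atpE lay at a median of -0.02 and that of psaA, psaB and rps14 at -0.01. Over 104 pairs of genes within a unit, the differences of the members of a pair were a median of 0.17 apart, against 0.22 over the other 2242 pairs.

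**Figure D3:**
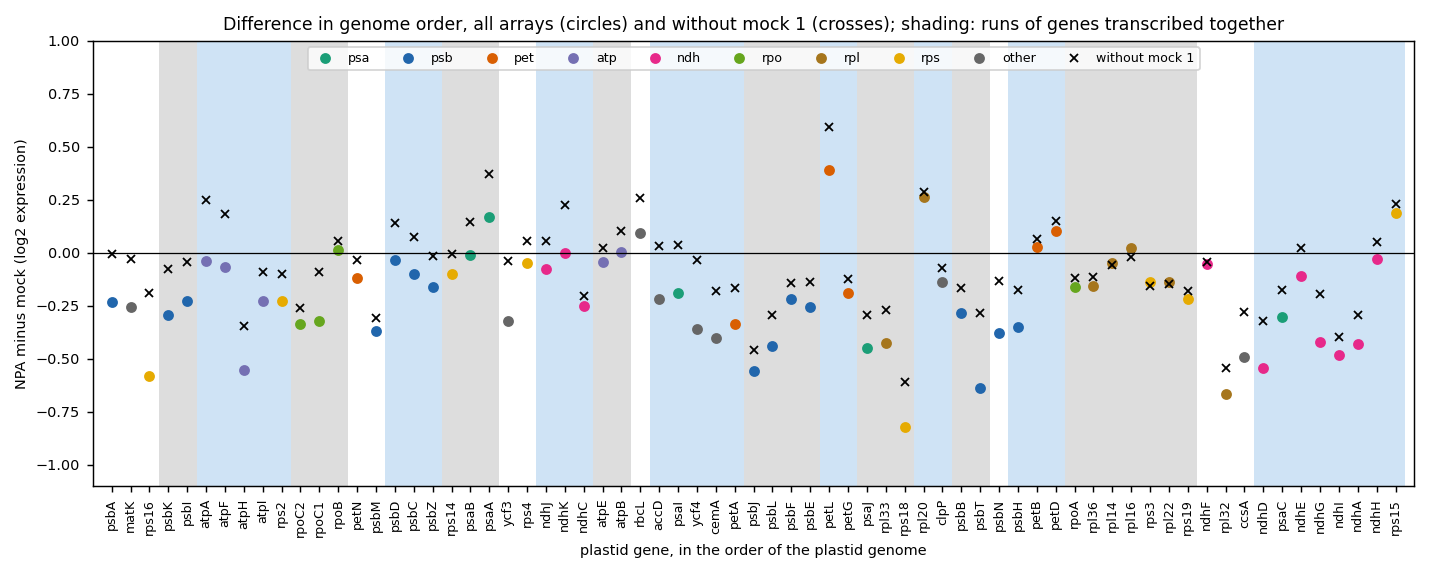
Circles give NPA minus mock in log2 expression for the 69 genes in their order along the plastid genome, coloured by symbol stem, and crosses the same value without mock 1, while grey and blue bands mark runs of genes transcribed together. The crosses lie above the circles at most genes but on or near them from rpl14 to rps19.

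Mock 1 did not stand out in the ribosomal protein unit that ends in rpoA. Its 7 measured genes, rps19, rpl22, rps3, rpl16, rpl14, rpl36 and rpoA, differed by -0.22 to 0.02 with a median of -0.14. Mock 1 lay a median of -0.03 from the mean of the other mock arrays in this unit, where the median over all members was 0.42. In rps3, for example, mock values were 11.43, 11.53 and 11.45 and NPA values 11.24, 11.37 and 11.39, so the groups did not overlap although they were close. The difference of rps3 was -0.14 ± 0.09 (SE, n = 3 per group, adjusted p = 0.514). NPA lay below mock without overlap in 4 of these 7 genes, rps19, rpl22, rps3 and rpoA, where 7.45% of all probe sets did. The unit was singled out after its values were seen.

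Some control probe sets and the mitochondrial genes also stood apart in mock 1 or NPA 2. The poly(A) control RNAs, which the standard protocol adds to each sample before labelling, were read by 12 probe sets. Their median deviation from the 6-array mean was 0.92 in mock 1 and -0.94 in NPA 2, and between -0.08 and 0.15 in the other arrays. The probe set for cytosolic 25S ribosomal RNA, which normally has no poly(A) tail, was highest in NPA 2 at 12.64 and lay between 11.78 and 12.01 elsewhere. The hybridisation controls, read by 9 probe sets, had a median deviation of 0.32 in mock 1, 0.06 in NPA 2 and between -0.19 and 0.01 elsewhere. Probe sets at the 3' and 5' ends of the GAPDH transcript drift apart as RNA degrades. They lay 1.55 apart in mock 1, the lowest of the 6 arrays, and 1.70 apart in NPA 2, the highest. In the others they lay between 1.57 and 1.69 apart. The part of these controls in the plastid values was not tested.

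Mitochondrial genes, from the other organelle with its own genome, were followed as a comparison. Of 11 measured, 9 had a lower mean in NPA, with a median of -0.35 and a range of -0.81 for nad1 to 0.60 for nad2, both subunits of respiratory complex I. None of the 11 was called by limma (lowest adjusted p 0.108), where 3.00% of all probe sets were called. Of them 5 had an unadjusted p under 0.05, all with a lower mean in NPA, where 4.95% of all probe sets did. Their median deviation was 0.36 in mock 1, next to 0.37 for the plastid genes. The nad2 values were 3.96, 3.79 and 3.84 in mock and 3.92, 5.14 and 4.35 in NPA, with the highest value in NPA 2. Its mock mean of 3.87 lay below the lower quartile of probe set means of 4.22. A test of plastid against mitochondrial genes was not made.

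**Figure D4:**
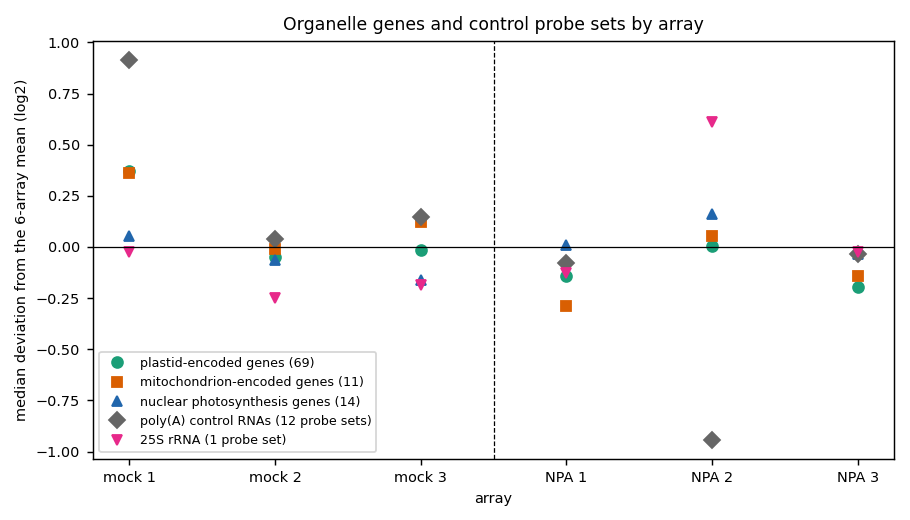
Points give, for each of the 6 arrays, the median deviation from the 6-array mean in log2 units over 69 plastid-encoded genes, 11 mitochondrion-encoded genes, 14 nuclear photosynthesis genes, 12 probe sets of poly(A) control RNAs and 1 probe set of 25S ribosomal RNA. Plastid and mitochondrial points lie together at 0.37 and 0.36 in mock 1, where the poly(A) controls reach 0.92. The 14 nuclear genes include TPI, whose enzyme works in the cytosol.

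Of 10 measured nuclear genes of the photosystems, electron transport and ATP synthase, 6 had a higher mean in NPA, with a median of 0.05, where 53.9% of all probe sets had a higher mean. With 4 genes listed for the Calvin cycle, all with a higher mean, it was 10 of 14 with a median of 0.09. The lists held 28 entries for the 10 genes and 49 for the 14, and most entries had no measured gene. Limma called 0 of the 14 in either direction, where 3.00% of all probe sets were called. Only PSBY, of photosystem II, at 0.35 (adjusted p = 0.242), had an unadjusted p under 0.05 with a higher mean, where 11.4% of all probe sets did. Only ATPC2, a gamma subunit of ATP synthase, at -0.49 (adjusted p = 0.0965), had one with a lower mean, where 4.95% of all probe sets did. The main gamma subunit gene ATPC1 differed by 0.01, and PGRL1B, of cyclic electron flow, by 0.17 (adjusted p = 0.487). Of the antenna genes LHCB4.1 differed by 0.21 (adjusted p = 0.368), LHCB4.2 by -0.04 and LHCB4.3 by -0.10, and the photosystem II subunit PSBW by -0.05. The photosystem I subunits PSAN and PSAE-1 differed by 0.08 and 0.09. Of the Calvin cycle genes PRK and SBPASE differed by 0.41 and 0.33, with limma's adjusted p at 0.347 and 0.357. The list's TPI entry matched a gene whose enzyme is known to work in the cytosol. This gene differed by 0.01 and is included in the counts and medians of the 14. The median deviation of the 14 genes was 0.05 in mock 1, next to 0.37 for the plastid genes. A test of nuclear against plastid genes was not made.

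Of 13 measured nuclear genes for plastid RNA processing and complex assembly, 12 had a lower mean in NPA, where 46.1% of all probe sets did. Their median was -0.10, and OTP80, OTP85 and OTP86 lay below the lower quartile of probe set means. Limma called 0 of the 13, where 3.00% of all probe sets were called, and 0 had an unadjusted p under 0.05. Of all probe sets 4.95% had such a p with a lower mean and 11.4% with a higher mean. The lowest p were those of CAF1, for splicing of plastid introns, at -0.33 (adjusted p = 0.409), and CRR22, for editing of plastid RNAs, at -0.17 (adjusted p = 0.450). Of 7 measured chlorophyll synthesis genes, from 35 list entries, 0 were called and 0 had an unadjusted p under 0.05. Their median was 0.03. PORB, for the light-dependent step of chlorophyll synthesis, differed by 0.20 (adjusted p = 0.745) and HEME1 by -0.07 (adjusted p = 0.826). The nuclear genes CRR41 and CRR42, which act in assembly of the NADH dehydrogenase-like complex, differed by -0.16 and 0.08, and 0 of 2 was called or had an unadjusted p under 0.05. Nuclear genes for sigma factors, the nuclear polymerase and plastid ribosomal proteins had 0 measured members on the lists. Markers of epidermis and xylem had 0 measured members of 5 and 10 listed, so the tissue could not be checked by them. The platform's gene table listed no gene for 8730 of 22746 probe sets, so these 0 counts need not mean absence from the array. Of the stomatal markers 2 of 5 were measured, of the phloem markers 2 of 5 and of the floral markers 1 of 4. The stomatal genes SPCH and MUTE differed by 0.15 and 0.03 and the floral gene SPL by 0.03. Means of SPCH, MUTE and SPL lay below the lower quartile of probe set means of 4.22, which limits what these markers can show. The phloem gene OPS rose by 1.15 (limma, adjusted p = 0.0191) and SWEET11 differed by -0.95 (adjusted p = 0.0909), and their part in the plastid values was not tested.

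**Figure D5:**
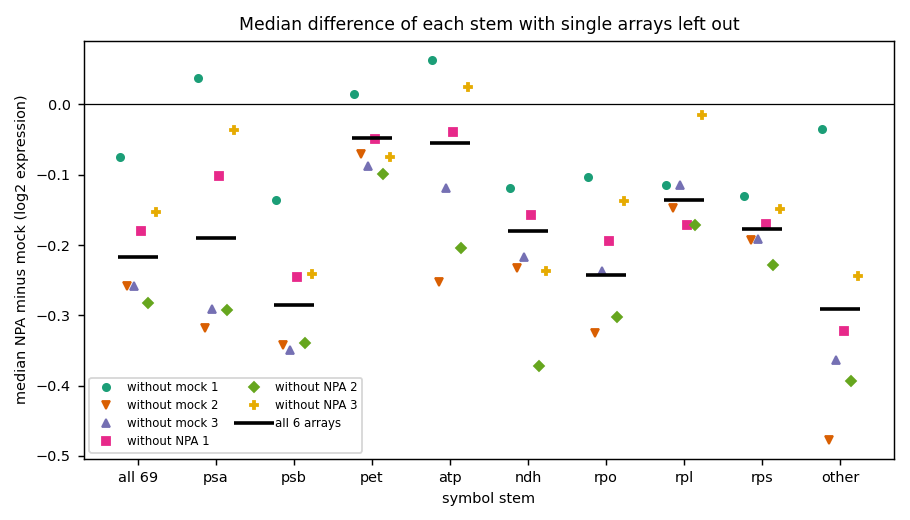
Black bars give the median NPA minus mock difference in log2 expression of all 69 plastid-encoded genes and of each symbol stem, and coloured points the same median with 1 array left out. Without mock 1 the psa, pet and atp medians lie above 0, while the psb median goes from -0.29 to -0.14.

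The size of change that these arrays leave possible can be read from the intervals of single genes. In 58 of 69 members the 95% interval, not adjusted for the number of genes, lay within 1 log2 unit of 0, so a 2-fold difference was outside it. The 11 others were psbA, psbT, petL, atpH, ndhD, rpoC1, rpl20, rpl32, rps16, rps18 and ycf4. The median standard error of the members was 0.18, against 0.12 over all tested probe sets. The number of arrays limits this precision, and a p above the threshold does not show that a gene had the same level in both groups.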

How the data were processed

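Expression was measured on 6 Affymetrix arrays of stem RNA, 3 per group. The authors deposited 1 log2 expression value per probe set and array. Per the submitters' processing notes, RMA and limma were used, with no versions named. RMA quantile-normalizes arrays and gives no detection call. Values were used as deposited. Without the 64 controls, 22746 probe sets entered the test.

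Groups were compared with limma 3.58.1 (lmFit, eBayes) under R 4.3.3, with p-values adjusted by Benjamini-Hochberg. The procedure was run on simulated data. Errors there were drawn independently for each probe set, so it cannot speak to array shifts that the members share. All adjusted p-values given are from limma fits to the deposited values, not from the simulated data. Figures used Python 3.11.15 and matplotlib 3.10.9. Names came from the platform's gene table, and chromosomes from TAIR10.1. No coordinates or sequences are given.

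Members and lists were chosen with earlier results of these data known. Named in full were the highest and lowest difference of each stem, called members, rbcL, psbA, rpoB and accD. Others given in full (psbJ, ndhI, rps3) were chosen after their values were seen. Of nuclear lists, called genes or the 2 lowest p were named. Further genes of short lists (photosystem genes and ATPC1) were added after their values were seen. Which genes share a transcription unit, and their polymerase, is textbook knowledge, not taken from these data.

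Alternatives were a replicate block, quantile normalization, median centring, brighter probe sets, trended and robust eBayes, left-out arrays, no _s_at or _x_at probe sets, gene means, adjusted p under 0.1 and, for stem medians, centring on the plastid median. Leaving out mock 1 and NPA 2 together was added after the data were seen.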

Additional observations from a re-analysis of the deposited data

How the results depend on the processing

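The count of called plastid-encoded genes was 0 with every alternative run except that without mock 3, where it was 1, so its range with single arrays left out was 0 to 1. Over all probe sets 683 were called, 304 to 446 with single arrays left out, 120 without mock 1 and NPA 2 together, 449 with the replicate block and 1208 at an adjusted p under 0.1. The replicate block called 0 members, and the labels do not say that a number marks a shared plant or day. Arrays with the same number did not deviate together (r = -0.26, 0.05 and 0.04 over all probe sets). Single arrays left out moved the ndh median to between -0.37 and -0.12 and the rpl median to between -0.17 and -0.016. With arrays centred on their medians the rpl median was -0.24. With arrays centred on the plastid median, which by its construction removes the shift the genes share, the medians were 0.027 for all 69, 0.064 for ndh, 0.20 for pet, 0.053 for psa, -0.042 for psb, 0.11 for rpl, 0.0014 for rpo, 0.066 for rps, 0.19 for atp and -0.047 for the members of no stem.

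Differences of some named genes turned in sign. With single arrays left out they ranged from -0.41 to 0.030 for accD, -0.082 to 0.10 for atpB, -0.36 to 0.26 for ndhK, -0.49 to 0.86 for petL, -0.13 to 0.14 for psbD, -0.058 to 0.26 for rbcL, -0.17 to 0.56 for rpl20, -0.057 to 0.14 for rpoB and -0.18 to 0.42 for rps15. Median centring turned atpB to -0.10, rbcL to -0.018 and rpoB to -0.095. Without mock 1 and NPA 2 together petL was -0.29, psbD 0.084, rpl20 -0.15, rpoB -0.0022 and rps15 -0.14. The cause of these turns was not tested, beyond the fewer arrays in such fits. The brighter probe sets alone left out 20 of the 69 genes. RMA values give no distance from background, which limits atpI, rpoB, petG, ndhF and ndhH, whose means lay below the lower quartile of 4.22.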
